A study of Mus musculus with 6 samples.

Results

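Synovial fibroblasts carried abundant transcripts of the macrophage growth factor Csf1 and of Kitl and Flt3l, a level of Il34 near the middle of all tested genes, and almost no Csf3. Of these 5, Csf3 was too low to test and the other 4 were not called changed after circulating immune complexes. The genes described are 8 growth factors of myeloid cells and their receptors, chosen by symbol: Csf1, Il34, Csf2, Csf3, Kitl and Flt3l as ligands, and Csf1r and Csf2rb as receptors. Of these 8, 7 were found among the 24348 genes of the count table, and Csf2 was not analysed here. RNA was taken from fibroblasts sorted from the collagenase-digested synovium, the lining tissue of joints, of adult wild-type C57BL/6 mice. One group of 3 libraries came from mice given immune complexes (IC, antigen bound by antibody) into a vein, and the other 3 from mice given vehicle. In the study's protocol ICs were ovalbumin mixed with rabbit antiserum to it. The time between injection and dissection, the surface markers of the fibroblast gate and whether a library came from 1 mouse were not given in the sources used here, so p-values measure only the spread between these libraries.

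These factors help to set how many myeloid cells a tissue holds. CSF1 and IL-34 both act on CSF1R, the receptor on which most tissue macrophages depend for survival, whereas CSF2 (GM-CSF) signals through CSF2RB and CSF3 (G-CSF) drives neutrophil output. KITL (stem cell factor) acts on KIT of mast cells and progenitors, and FLT3L on FLT3 of dendritic cell precursors, so fibroblasts that make the ligands speak to cells that carry the receptors. Whether fibroblasts change this supply when macrophages meet ICs is the question these values bear on.

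Total counts per library were 43577433 to 54025183 after IC and 40114331 to 56714304 after vehicle. Replicate libraries were distinct: chi-square values per degree of freedom within a group were 16.02 to 76.4, far above the value of 1 that counting noise alone gives. The defining fibroblast markers were high in all libraries, at a sum of 44899 to 46604 CPM (counts scaled to the total of the library) after IC and 45763 to 55612 after vehicle for the 10 genes. Within that list the lining marker Prg4 was called higher after IC (log2 fold change 0.94, adjusted p = 0.0103 by DESeq2 and 0.0541 by edgeR). Cd55, which the study used to mark lining fibroblasts in human synovium, was not called (log2 fold change 0.08, adjusted p = 0.849 by DESeq2). Col3a1 and Lum were called lower by DESeq2. Of the 10, DESeq2 called 3, against 2.10% of all tested genes, while limma-voom called 1 and edgeR none. The groups did not overlap for 4 of the 10, against 15.8% of all tested genes. Skeletal muscle markers (10 genes) summed to 17.8 to 46.9 CPM after IC and 46.6 to 109 after vehicle, with a median log2 fold change of −1.84. DESeq2 called 2 of them lower, against 2.10% of all tested genes called, and edgeR and limma-voom called none. An unadjusted p under 0.05 by DESeq2 was found for 8 of the 10, against 9.80% of all tested genes. The part that the mix of fibroblasts or other cells had in the values below was not tested. In sorted bulk RNA fewer cells of a kind and less RNA per cell cannot be told apart.

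Csf1 lies on chromosome 3 (107741048 to 107760469, minus strand, GRCm38), and its promoter is shown because it is the most abundant of the ligands. The 250 bases before its start, from RefSeq on GRCm38.p6, are at chr3:107760470-107760719 on the minus strand. They are set beside those of Flt3l, at chr7:45136433-45136682 on the minus strand, with matches to 4 motifs in capitals.
Csf1: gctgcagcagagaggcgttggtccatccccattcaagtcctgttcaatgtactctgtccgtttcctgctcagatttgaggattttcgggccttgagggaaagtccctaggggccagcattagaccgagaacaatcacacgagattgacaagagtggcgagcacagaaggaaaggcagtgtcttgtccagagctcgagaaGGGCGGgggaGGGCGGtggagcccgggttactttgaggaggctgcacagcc
Flt3l: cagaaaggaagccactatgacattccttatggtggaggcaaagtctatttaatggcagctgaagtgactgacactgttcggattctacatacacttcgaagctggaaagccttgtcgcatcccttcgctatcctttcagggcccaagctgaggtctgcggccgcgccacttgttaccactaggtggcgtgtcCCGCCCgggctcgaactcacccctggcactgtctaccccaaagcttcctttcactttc
The motifs were the TATA box TATAAA, the CCAAT box CCAAT, the GC box GGGCGG and the AP-1 motif TGANTCA, searched on both strands. The Csf1 window held 2 GC boxes and had a GC content of 56.4%. The Flt3l window held 1 GC box and had a GC content of 53.6%, and the median over all RefSeq windows was 52.4%. Of 32851 RefSeq windows of this length, 32.7% held a GC box, and 12.4%, 33.9% and 6.75% held the TATA box, the CCAAT box and the AP-1 motif. A match of letters is a description and not a site shown to be bound.

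The members also differ in the pentamer ATTTA of the 3′ untranslated region, the core of the AU-rich elements through which cytokine mRNAs are marked for fast decay. For the 4 ligands with the most matches, the stretch of 30 bases with the most pentamers is given from GENCODE M21, on the sense strand with the pentamers in capitals and overlapping matches counted.
Csf2: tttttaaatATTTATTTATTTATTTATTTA
Csf3: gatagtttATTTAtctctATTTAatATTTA
Kitl: ccttctcagttttgtgacttgATTTATTTA
Csf1: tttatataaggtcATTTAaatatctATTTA
Csf2 had 9 pentamers in 317 bases and Csf3 had 6 in 669, or 28.4 and 8.97 per kilobase. Pentamers were as dense in only 0.0283% and 1.05% of 14151 tested genes with an untranslated region of at least 50 bases. Kitl had 14 in 4435 bases (3.16 per kilobase) and Csf1 4 in 2111 (1.90 per kilobase), against a median of 1.28 per kilobase over the tested genes. Il34 had 1, Csf1r 3, and Flt3l and Csf2rb none. The longer form TTATTTATT occurred 4 times in Csf2 and in no other member, and in 8.13% of the tested genes.

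The first question was which of these factors the fibroblasts express, and the levels are a description. To compare genes, CPM values were divided by the length of all annotated exons in kilobases, giving RPKM. On this scale Csf1 stood at 60.4 ± 7.87 (SD, n = 6 libraries), above 97.5% of 19602 tested genes with a known length. Kitl stood at 23.2 ± 2.02 and above 92.4% of the tested genes. Flt3l was at 7.81 ± 0.993 and above 73.8%, and Il34 at 3.22 ± 0.634 and above 52.8%. These levels formed 4 separate steps, since the lowest library of each gene exceeded the highest library of the next.

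Csf1r and Csf2rb followed at 0.189 ± 0.0606 and 0.176 ± 0.0834 RPKM, above 9.06% and 8.23% of the tested genes. The step from Il34 down to Csf1r was 17.1-fold in the means, with no overlap between libraries. Csf1r, Csf2rb and Csf3 (0.156 ± 0.304) overlapped and could not be ordered. Among the 5 ligands in the table, Csf1 made up 58.1% to 68.1% of the summed level per length in a library, Kitl 22.2% to 29.3%, Flt3l 6.50% to 9.32% and Il34 2.11% to 4.48%. With the longest transcript in place of all exons the level of Csf1 was 76.4 and that of Flt3l 12.2.

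**Figure D1:**
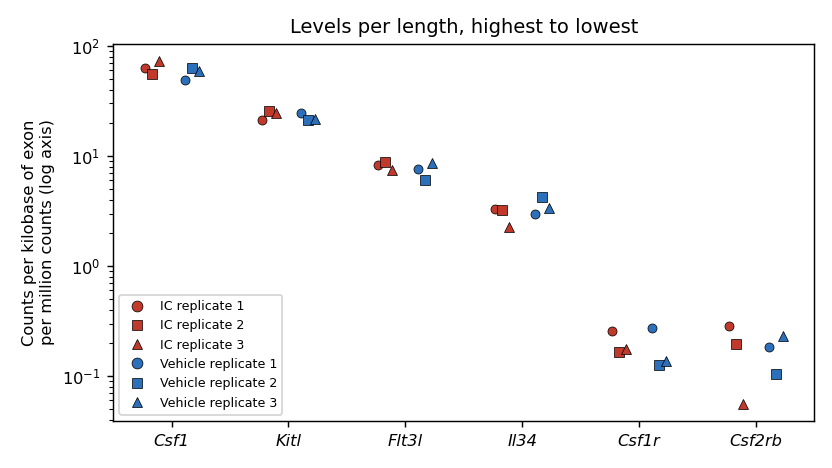
Level of each member in RPKM (CPM per kilobase of exon, log axis), with 1 point per library, IC in red and vehicle in blue. Csf1, Kitl, Flt3l and Il34 form 4 steps without overlap from 60.4 down to 3.22, while Csf1r and Csf2rb overlap near 0.18; Csf3 is left out because 3 of its libraries are at 0.

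The second question was whether IC changed these transcripts. None of the 6 members tested was called at an adjusted p under 0.05 by DESeq2, edgeR or limma-voom, and none had an unadjusted p under 0.05 by any of the 3. Over all 19925 genes tested DESeq2 called 419 (2.10%), of which 205 were higher (1.03%) and 214 lower (1.07%), and edgeR called 37 (0.186%). An unadjusted p under 0.05 by DESeq2 was found for 9.80% of the tested genes. Against these shares, a count of 0 among 6 genes does not set the members apart from other genes. The IC and vehicle values overlapped for all 6, where 15.8% of all tested genes had no overlap. The median log2 fold change of the 6 was 0.10, against 0.00 (−0.0019) over all tested genes. Values below are counts divided by the DESeq2 size factor of the library, called normalized counts.

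Csf1 had 15913, 13998 and 18617 normalized counts in IC replicates 1, 2 and 3 and 12104, 16249 and 15257 in vehicle replicates 1, 2 and 3. IC replicate 3 was highest and vehicle replicate 1 lowest, and the groups overlapped. The means were 16176 ± 2321 and 14537 ± 2164 (SD, n = 3 each). The log2 fold change was 0.15 ± 0.12 (SE, DESeq2 adjusted p = 0.724). The 95% interval ran from 0.949-fold to 1.30-fold, and over the 6 fits that each left out 1 library its upper end rose to at most 1.42-fold. With 1 surrogate variable in the fit, from the batch tool the study names, the estimate was 1.18-fold and its interval, 1.01-fold to 1.39-fold, lay just above no change, while the DESeq2 adjusted p was 0.466. Csf1 varied by 14.3% (coefficient of variation over 6 libraries), against 0.802% from counting alone, so depth did not limit this comparison.

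Kitl, on chromosome 10 (100015630 to 100100416, plus strand), had 6037, 7216 and 6989 normalized counts after IC and 6825, 6154 and 6295 after vehicle. IC replicate 1 was the lowest of all 6 libraries and IC replicate 2 the highest. The log2 fold change was 0.07 ± 0.092 (SE, adjusted p = 0.895 by DESeq2), with a 95% interval of 0.927-fold to 1.19-fold, the narrowest of the members. Kitl was also the steadiest, at a coefficient of variation of 7.40%.

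Flt3l, on chromosome 7 (45129788 to 45136432, minus strand), had 1540.5, 1608 and 1396 normalized counts after IC and 1370.1, 1167 and 1643 after vehicle. Vehicle replicates 2 and 3 were the lowest and the highest of all libraries, so the spread within vehicle exceeded the difference between groups. The log2 fold change was 0.12 ± 0.14 (SE, adjusted p = 0.874 by DESeq2), with an interval of 0.900-fold to 1.32-fold. The annotation places 856 exon bases of Flt3l within Gm45713 on the same strand, so its count is uncertain to the extent that reads were shared.

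Il34, on chromosome 8 (110741829 to 110805924, minus strand), had 307, 302 and 214 normalized counts after IC and 269, 406 and 325 after vehicle. IC replicate 3 was lowest and vehicle replicate 2 highest, with overlap between groups. The log2 fold change was −0.28 ± 0.24 (SE, adjusted p = 0.792 by DESeq2), and the interval of 0.591-fold to 1.15-fold reached further down than that of the other ligands. Counting error was 5.72% of the mean for Il34, against a coefficient of variation of 20.9%.

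Csf3, on chromosome 11 (98701263 to 98703629, plus strand), was seen in 3 libraries. It had 4, 50 and 0 reads in IC replicates 1, 2 and 3 and 8, 0 and 0 in vehicle replicates 1, 2 and 3. It did not pass the filter of at least 10 counts in 3 libraries and was not tested. A count of 0 allows up to 3 counts in a library, for counting error only, and IC replicate 2 held most of the reads. Over all 6 libraries the coefficient of variation was 195%, against 31.1% from counting, so the libraries differed by far more than counting error. Within IC alone it was 153%.

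**Figure D2:**
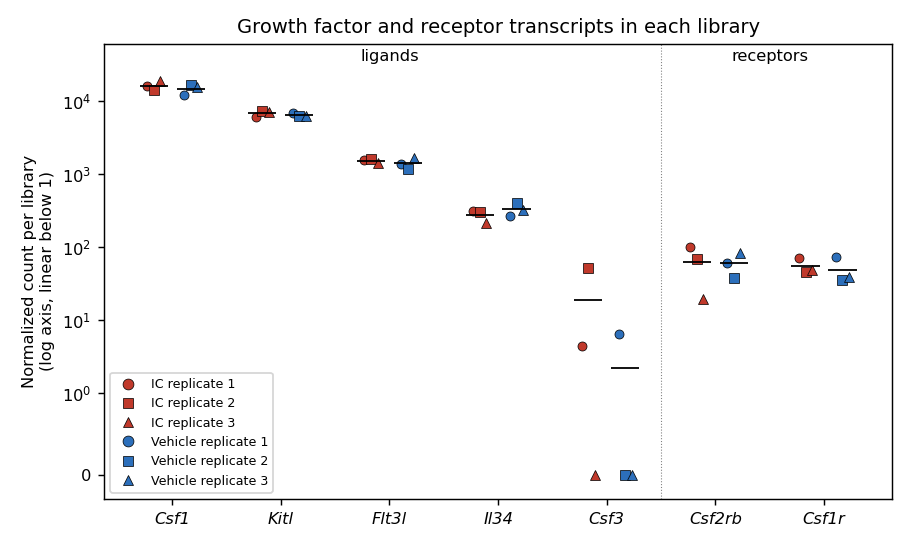
Normalized counts of the 7 members in the table (log axis, linear below 1), with 1 point per library and a line at each group mean. IC and vehicle overlap for every member, Csf1 lies between 12104 and 18617 in all 6 libraries, and Csf3 is at 0 in 3 libraries.

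Both receptors were near the floor. Csf1r, on chromosome 18 (61100598 to 61132149, plus strand), had 70.5, 45.5 and 49.3 normalized counts after IC and 73.0, 35.9 and 38.9 after vehicle. The highest values of each group nearly matched, and the log2 fold change was 0.15 ± 0.51 (SE, adjusted p = 0.975 by DESeq2) with an interval of 0.555-fold to 2.23-fold. Its exons share 873 bases with Hmgxb3 on the other strand, which had 2039 to 3172 counts, and the use of strand in counting was not given in the sources used here.

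Csf2rb, the shared signalling chain of the GM-CSF receptor family, lies on chromosome 15 (78325752 to 78353847, plus strand). It had 99.2, 68.2 and 19.7 normalized counts after IC and 61.5, 37.8 and 82.7 after vehicle. The IC libraries held both the highest and the lowest value, the log2 fold change was 0.04 ± 0.58 (SE, adjusted p = 0.997 by DESeq2), and the interval spanned 0.467-fold to 2.26-fold. Csf2rb2 is a close paralogue, so reads may be split between both genes. The direction of Csf1r and of Csf2rb depended on which library or setting was used, and neither has a direction here.

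**Figure D3:**
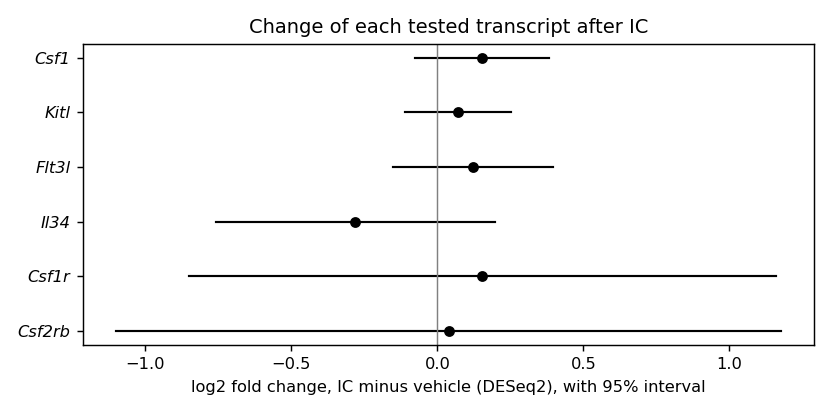
Log2 fold change of the 6 tested members, IC minus vehicle, from DESeq2 (points) with 95% intervals (lines) and a grey line at no change. Every interval spans 0; it is narrowest for Kitl, from 0.927-fold to 1.19-fold, and widest for the receptors.

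Macrophage markers were set beside the receptors, as CSF1R is carried by macrophages. Of 12 macrophage markers, 7 were in the table, with a sum of 23.2 to 34.9 CPM after IC and 26.8 to 31.5 after vehicle. Nearly all of it was Cd68, and the other 6 summed to 1.28 to 3.49 CPM after IC and 2.54 to 4.24 after vehicle. C1qb and C1qc, which mark tissue macrophages, had 0 to 10 counts in a library, and Ptprc, Adgre1, Itgam, C1qa and Tyrobp were not analysed here. None of the 3 macrophage markers tested was called or had an unadjusted p under 0.05 by DESeq2, edgeR or limma-voom. The neutrophil and mast cell lists summed to under 1 and 2 CPM in each library, with 0.344 to 0.851 and 0.422 to 1.52 CPM.

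Since CSF1 and IL-34 share a receptor, their balance was compared within each library, where scaling has no effect. Csf1 had 51.8, 46.4 and 86.9 counts for each count of Il34 in IC replicates 1, 2 and 3, and 45.0, 40.0 and 47.0 in vehicle replicates 1, 2 and 3. IC replicate 3 stood above the other 5 libraries, while IC replicate 2 lay under vehicle replicate 3. On the log2 scale the means were 5.89 ± 0.48 and 5.46 ± 0.12 (SD, n = 3 each), a difference of 0.43 (exact permutation test, two-sided p = 0.2, where 0.1 is the smallest p this design allows). Without IC replicate 3 the difference was 0.16.

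**Figure D4:**
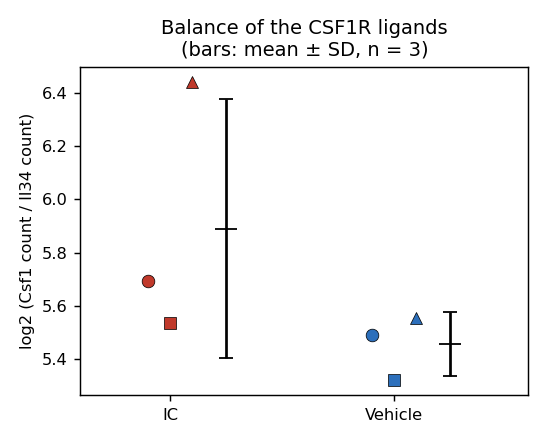
Log2 ratio of the Csf1 count to the Il34 count in each library, with the mean and SD of each group as bars. IC replicate 3, at 6.44, lies apart from the other 5 libraries, which range from 5.32 to 5.69.

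The genes whose values across the 6 libraries followed each member most closely were found by the root mean square difference of centred log2 values among 13431 genes with at least 100 normalized counts. For Csf1 they were Keap1 (0.0354) and Znfx1 (0.0358), against a spread of Csf1 itself of 0.192 on the same scale. For Il34 they were Eml2 (0.049) and BC002059 (0.0511), for Kitl Hic2 (0.0316) and Ier3ip1 (0.0343), and for Flt3l Fmnl3 (0.0314) and Appl2 (0.0379). None of these 8 genes was called, with adjusted p from 0.728 to 0.942 by DESeq2. With 6 libraries and this many candidates, close neighbours are found for any gene.

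The third question was whether genes around these factors moved. Over all 19925 tested genes DESeq2 called 2.10% and edgeR 0.186%, and 15.8% had no overlap between groups. The lists below are small and were not tested as sets. Of 11 receptor genes, 8 were tested and 1 was called, with a median log2 fold change of −0.01. That gene was Ptprz1, a receptor-type phosphatase of glia which also binds IL-34. It had 67.2, 52.7 and 26.0 normalized counts after IC and 283, 185 and 91.2 after vehicle, so the groups did not overlap. Its log2 fold change was −1.95 ± 0.46 (SE, adjusted p = 0.00221 by DESeq2 and 0.131 by edgeR), and without vehicle replicate 1 the adjusted p was 0.0830. The 6 Schwann cell markers summed to 61.6 to 146 CPM after IC and 87.9 to 143 after vehicle. One of them, Ncam1, was called lower by DESeq2 (log2 fold change −0.69, adjusted p = 5.3e-05) and not by edgeR (adjusted p = 0.0593), with no overlap between groups. The other 5 Schwann cell markers were not called, and the median log2 fold change of the 6 was 0.04. The part of such cells in the Ptprz1 values was not tested. Sdc1, the syndecan that also binds IL-34, was at −0.05 (log2 fold change, DESeq2 adjusted p = 0.960).

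Kit, the receptor of KITL, was chosen for mention after its values were seen. It had 207, 274 and 272 normalized counts after IC and 424, 369 and 409 after vehicle, without overlap, and a log2 fold change of −0.67 ± 0.21 (SE). It missed the threshold, with an adjusted p = 0.0534 in DESeq2 and 0.185 in edgeR. The 8 endothelial markers, of cells that can carry Kit, summed to 196 to 261 CPM after IC and 267 to 312 after vehicle, also without overlap. DESeq2 called 2 of them lower, Cdh5 and Kdr (adjusted p = 0.0496 and 3.5e-05), against 2.10% of all tested genes. Neither was called by edgeR (adjusted p = 0.319 and 0.0537), and limma-voom called 1 of the 8. For 4 of the 8 the groups did not overlap, against 15.8% of all tested genes. Tek and Vwf were at −0.07 and −0.04 (log2 fold change, DESeq2 adjusted p = 0.888 and 0.992). The part of endothelial RNA in the Kit values was not tested.

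Of 13 other growth and niche factors, 10 were tested and 1 was called, with a median log2 fold change of 0.11. Il6, a cytokine that supports B cells and drives the acute-phase response, rose from 8101, 6311 and 6940 normalized counts after vehicle to 9669, 8776 and 12711 after IC. The groups did not overlap, and the log2 fold change was 0.55 ± 0.13 (SE, adjusted p = 0.00183 by DESeq2 and 0.152 by edgeR). Without IC replicate 3, vehicle replicate 2 or vehicle replicate 3 its adjusted p was 0.0630, 0.0759 and 0.0754 by DESeq2. Cxcl12, which retains blood cells in their niche, had the most normalized counts of this list, though Il6 was higher per length (75.1 against 52.1 RPKM). Its means were 18334 after IC and 22727 after vehicle for Cxcl12, with an adjusted p of 0.0929 by DESeq2.

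Membrane-bound CSF1 and KITL are released by proteases. Of the 6 tested genes of this shedding list, DESeq2 called 2 and edgeR none, where they called 2.10% and 0.186% of all tested genes. Adam10, a sheddase, fell from 4387, 4380.0 and 4611 normalized counts to 3658, 3497 and 3776, a log2 fold change of −0.29 ± 0.084 (SE, adjusted p = 0.0266 by DESeq2 and 0.147 by edgeR). Rhbdf1, which helps to mature the sheddase ADAM17, rose from 6881, 7378 and 7754 to 8623, 9264 and 8615, a log2 fold change of 0.27 ± 0.081 (SE, adjusted p = 0.0415 by DESeq2 and 0.218 by edgeR). Both pairs of groups were apart, but Adam10 kept its call in 3 and Rhbdf1 in 1 of the 6 fits without 1 library, with adjusted p up to 0.154 and 0.257 by DESeq2. The replicate block in DESeq2 ended both calls (adjusted p = 0.139 and 0.140), and 1 surrogate variable ended that of Rhbdf1 (0.0781). Adam17 itself was at −0.10 (log2 fold change, DESeq2 adjusted p = 0.779), and the list median was −0.10.

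None of the 11 genes for proteins that bind or decay cytokine mRNAs was called by DESeq2, edgeR or limma-voom, and none had an unadjusted p under 0.05 by any of them. The median log2 fold change was 0.02. Zfp36, whose protein binds AU-rich elements of Csf2 and other cytokine mRNAs, was the most abundant, at 61476 normalized counts after IC and 56308 after vehicle (log2 fold change 0.13, adjusted p = 0.533 by DESeq2). Zfp36l1, its relative, followed with 29126 and 31053 (−0.09, adjusted p = 0.746 by DESeq2).

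In the JAK2-STAT5 arm below the CSF2 and CSF3 receptors, all 8 genes were tested and DESeq2 called 2, against 2.10% of all tested genes. The median log2 fold change was −0.03. Of these receptors, Csf3r was not analysed here, Csf2rb had 22 to 90 counts per library and Csf2ra 385 to 551. Whether signals from them had a part in the values below was not tested. Socs2, a feedback inhibitor of cytokine signals, fell from 1475, 1201 and 965 normalized counts to 695, 852 and 663, a log2 fold change of −0.72 ± 0.17 (SE, adjusted p = 0.00248 by DESeq2 and 0.108 by edgeR). Without IC replicate 3 its adjusted p was 0.0526. Pim1, a kinase induced by STAT factors, rose from 10313, 9458 and 10107 to 11263, 12675 and 14723, a log2 fold change of 0.37 ± 0.098 (SE, adjusted p = 0.0103 by DESeq2 and 0.178 by edgeR). Pim1 lost its call when IC replicate 2 or 3 was left out (DESeq2 adjusted p = 0.0660 and 0.113), when vehicle replicate 2 or 3 was (0.130 and 0.0931), and with 1 surrogate variable (0.0620). The groups did not overlap for 4 of the 8 genes, against 15.8% of all tested genes. These 4 also had an unadjusted p under 0.05 by DESeq2, against 9.80%. Besides Socs2 and Pim1 they were Cish and Stat5a, at log2 fold changes of 0.39 and −0.22 (DESeq2 adjusted p = 0.235 and 0.386).

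**Figure D5:**
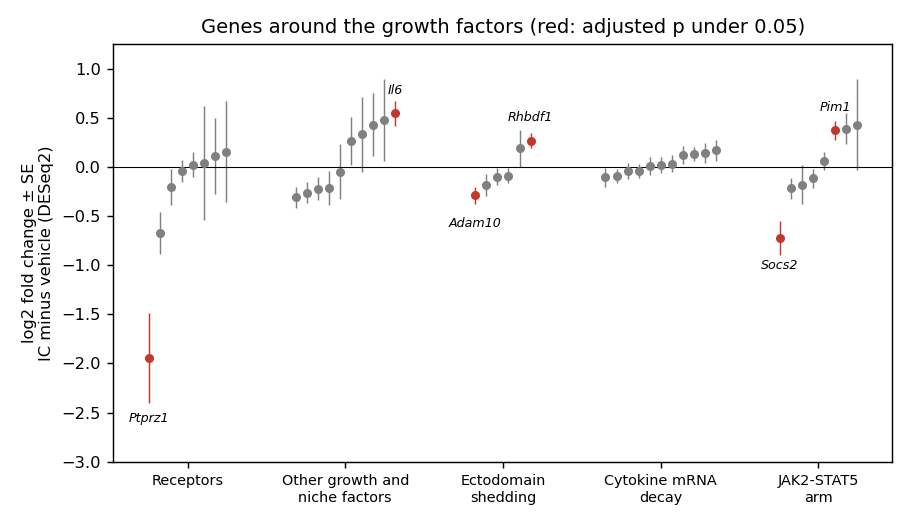
Log2 fold change with SE, IC minus vehicle by DESeq2, of the tested genes of 5 lists around the growth factors, called genes in red. Ptprz1, Adam10 and Socs2 are called lower and Il6, Rhbdf1 and Pim1 higher, and no gene of cytokine mRNA decay is called.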

How the data were processed

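Total RNA was sequenced from sorted synovial fibroblasts in 6 libraries, 3 after IC and 3 after vehicle, grouped as GEO's labels state. Per the file headers and the authors' methods, the tables hold raw, whole-number read counts for each gene symbol. According to the submitters' notes reads were trimmed with Trim Galore, aligned to mm10 with HISAT2 and counted with featureCounts. Versions, annotation and strand use are not given in the sources used here, and labels and methods disagree on the library kit. The study also removed batch effects with sva by steps it does not state. The 6 single-sample tables were identical to the columns of the combined table, which lists genes above 0 in at least 3 libraries.

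Testing was limited to the 19925 genes that reached 10 counts in 3 or more libraries, by the Wald test of DESeq2 (version 1.42.0), the tool the study names, with treatment as the only term and Benjamini-Hochberg adjustment at 0.05. DESeq2 left 3870 of these genes without an adjusted p, so its adjustment ran over the rest, and without its independent filtering it called 372 genes in place of 419. Fold changes are unshrunken. Lengths and coordinates are from GENCODE M21 (GRCm38, the assembly of mm10), which matched 98.0% of symbols to 1 gene. Alternatives were edgeR (4.0.16), limma-voom (limma 3.58.1), other scalings and filters, 1 surrogate variable from sva (3.50.0), the replicate number as a block, and each library left out. The fits were tested on simulated data, where the share of false calls exceeded the threshold for both DESeq2 and edgeR and was higher for DESeq2.

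The members and lists were chosen with earlier results of these data known. Named by a fixed rule are all members, called genes of the pathway lists (the 2 most abundant where none was called), and the 2 genes closest in pattern to each member with at least 100 normalized counts. Kit, Sdc1, Cxcl12, Adam17, Cish, Stat5a and the cell type markers named singly fall outside this rule and were chosen after their values were seen.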

Additional observations from a re-analysis of the deposited data

How the results depend on the processing

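None of the 6 tested members was called under any of the 9 alternatives with 6 libraries or in any of the 6 fits without 1 library. Csf1, Il34, Kitl and Flt3l kept their direction throughout, from 0.04 to 0.25 for Csf1 and from −0.42 to −0.11 for Il34 without 1 library. The receptors did not. Csf1r turned to −0.0051 with 1 surrogate variable and ran from −0.062 (without IC replicate 1) to 0.56 without 1 library. Csf2rb turned to −0.22 with limma-voom, −0.18 with 1 surrogate variable, −0.10 (−0.098) with the replicate block in DESeq2 and −0.09 (−0.094) with the replicate block in edgeR, and ran from −0.47 to 0.47 without 1 library. The cause was not tested. Csf1r had 32 to 89 counts per library and Csf2rb 22 to 90. Their coefficients of variation over 6 libraries were 30.5% and 47.2%, against 13.65% and 12.9% from counting alone. The count over all tested genes, 419 with DESeq2, was 37 with edgeR, 62 with limma-voom and 22 with edgeR and the replicate block, and ran from 281 to 677 without 1 library, the highest without vehicle replicate 1. Correlations across genes between deviations of libraries with 1 number were −0.092, −0.16 and 0.025, which showed no pairing by replicate number. Deviations from means of 3 libraries cannot show that the libraries were unpaired. With the replicate block DESeq2 called 320. The difference in the log2 ratio of Csf1 to Il34 was 0.43 with the replicate block (exact sign-flip permutation p = 0.25, the smallest that 3 pairs allow, with all 3 pairs higher after IC) and ran from 0.16 to 0.61 without 1 library. Of the 6 called pathway genes, edgeR and limma-voom called none.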

Other observations

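A few transcripts of neutrophils and of tissue breakdown were near the floor in these libraries and are given as values, chosen after they were seen. S100a8, an alarmin of neutrophils and monocytes, had 6, 12 and 6 counts in IC replicates 1, 2 and 3 and 0 in each vehicle library. Mmp9, a gelatinase stored by neutrophils and able to release KITL, had 14, 3 and 6 counts after IC and 2, 0 and 0 after vehicle. Elane and Mpo, which mark neutrophil precursors, had 9, 9 and 23 and 0, 5 and 17 counts after IC, and 16, 29 and 20 and 8, 0 and 0 after vehicle. Of these 4, only Elane passed the filter and was tested, and it was not called (log2 fold change −0.69, unadjusted p = 0.406 by DESeq2). Of the 8 neutrophil markers listed, only S100a8, Mpo and Elane were among the genes counted. S100a9, Ly6g, Cxcr2, Mmp8 and Retnlg were not analysed here. Among all tested genes, 15.8% had no overlap between IC and vehicle. That share does not cover genes that failed the filter, such as S100a8, Mmp9 and Mpo. A count of 0 allows up to 3 counts in a library.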
